A study of Homo sapiens with 14 samples.

Results

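The progression of the hypoxic response was read from 2 of the 14 arrays of the series, a gastric carcinoma line without knockdown kept in hypoxia for 1 day and the same line kept in hypoxia for 2 days. The labels name the line MKN28 and the study names it MKN74, and the labels and the study's methods set hypoxia at 1% oxygen. The array of untreated parental cells on day 2 served as the reference level. For comparison, 2 arrays of the same hypoxia times labelled ANGPTL4 knockdown are described, as are 2 arrays of the same line after 1 and 2 days of TGFβ1 at 10 ng/ml. The knockdown in this line was by siRNA in the methods. Hypoxia, TGFβ1 and, in a line that carries a Snai1-ER transgene, 4-hydroxytamoxifen were used to start an epithelial-mesenchymal transition. Each condition was 1 array of 1 cell line, so every difference is given by its size, with no p-value and no error between samples, and neither the labels nor the methods say whether the arrays came from separate cultures. Day 1 had no untreated array of its own, and 1 day more in low oxygen and 1 day more in culture cannot be told apart.

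Cells sense oxygen through prolyl hydroxylases, which mark the α subunits of the hypoxia-inducible factors (HIFs) for destruction when oxygen is present. In hypoxia the factors last and raise genes of glucose use, collagen processing, mitophagy and vessel growth, and the hydroxylase genes EGLN1 and EGLN3 are among their targets. Interferon response genes, in contrast, are switched on by STAT and IRF factors, and their products restrain viruses and feed peptides to MHC class I. NRF2, the factor of the antioxidant response, drives another set that includes the aldo-keto reductases.

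Values are log2 levels as the authors normalized them, and a gene was called changed when 2 arrays differed at least 1.5-fold. Of 18417 genes with a probe set of their own, 11050 had a mean over the 14 arrays of at least 5.90 and were compared. The median over probe sets was 6.01 and 6.04 on the hypoxia arrays of days 1 and 2, and 6.02 untreated. In cells without knockdown given TGFβ1 it was lower, at 5.23 and 5.19. Measured as the spread of an array's probe set values around the average of all others, the array of 1 day of hypoxia labelled knockdown stood apart most (SD 0.70). The Snai1-ER array of 4 days of 4-hydroxytamoxifen without knockdown was next (0.61), while the hypoxia arrays of days 1 and 2 had 0.36 and 0.37. All 8 epithelial markers passed the filter, with KRT8 (12.22 untreated, 12.03 on day 1 and 11.97 on day 2) and EPCAM (11.70 untreated, 11.75 on day 1 and 11.60 on day 2) among the brightest genes. Of 18 genes of gastric and intestinal differentiation 6 passed, TFF1, MUC1, CDX1, CDX2, LGALS4 and CEACAM6. MUC1 read 6.88 untreated, 7.71 on day 1 and 7.51 on day 2, and CDX2 6.89 untreated, 6.69 on day 1 and 6.93 on day 2. GKN1 and MUC13, which mark stomach and gut epithelium, were among the dimmest of the list and read 3.27 to 3.64 on the 3 arrays. None of 6 leukocyte markers passed, nor did 7 of 8 fibroblast and 5 of 6 endothelial markers. COL1A1 and CLDN5, the ones that did, read 7.01 to 7.02 and 6.43 to 6.79 on the 3 arrays.

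The step from day 1 to day 2 was smaller than the difference of either day from untreated cells. From day 1 to day 2, 114 genes rose (1.03% of those compared) and 118 fell (1.07%), against 499 that were higher and 335 that were lower than untreated on day 1 and 575 and 491 on day 2. The median difference between the days was 0.01 and the SD over genes 0.24. Split by level into 3 equal groups, 2.71% of the dimmest genes, 2.61% of the middle group and 0.977% of the brightest were called in either direction. Because bulk RNA was measured, more RNA per cell and more cells that express a gene cannot be told apart.

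The genes were then sorted by both days against the untreated array. A sustained gene differed from untreated the same way on both days and by less than 1.5-fold between them, which held for 309 genes that were higher (2.8%) and 182 that were lower (1.65%). A late gene was near untreated on day 1 and past the threshold against both arrays on day 2, with 48 genes higher (0.434%) and 52 lower (0.471%). A growing gene was past the threshold on day 1 and moved further by at least 1.5-fold, with 11 higher (0.0995%) and 7 lower (0.0633%). A transient gene was back near untreated on day 2, with 18 higher on day 1 (0.163%) and 18 lower (0.163%). A declining gene lost at least 1.5-fold but was still past the threshold on day 2, with 5 higher (0.0452%) and 0 lower (0%). Where a gene moved across the threshold by a smaller step between the days, it was counted apart. Of these, 155 (1.4%) were higher and 128 (1.16%) lower on day 1 only, and 202 (1.83%) and 249 (2.25%) on day 2 only. Another 37 genes rose and 35 fell by at least 1.5-fold between the days while within 1.5-fold of untreated on both.

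**Figure D1:**
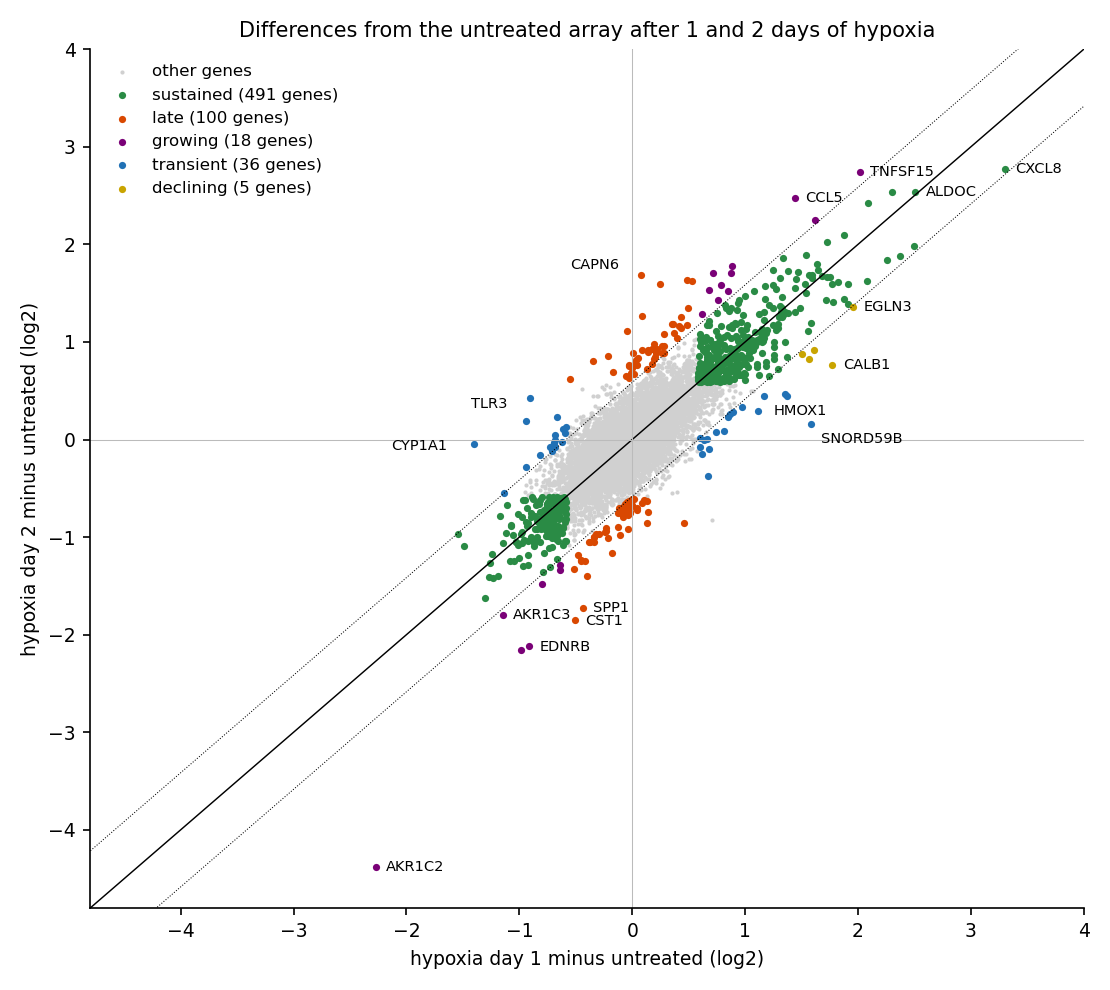
Log2 difference from the untreated array after 1 day (x axis) and 2 days (y axis) of hypoxia for 11050 genes, 1 array each, coloured by time pattern with both directions counted together. The solid line marks equal differences and the dotted lines a 1.5-fold step between the days, and most coloured genes are sustained and lie between the dotted lines, with AKR1C2 far below them.

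The lists plotted leave out those picked from the values, but were chosen with earlier results of these data known. Among them, interferon response genes had the largest median rise between the days. Of 32 measured members, 8 rose from day 1 to day 2 and 0 fell, where 1.03% and 1.07% of all genes did. The list median was 0.39 against 0.01 over all genes. Relative to untreated the list median was 0.30 on day 1 and 0.58 on day 2, and 6 and 16 members were at least 1.5-fold higher. Over all 11050 genes, 499 and 575 were. CMPK2, a mitochondrial nucleotide kinase induced by interferon, read 7.16 untreated, 7.41 on day 1 and 8.75 on day 2, a 2.54-fold rise between the days. OAS2 and OAS3 make the 2-5A signal that activates RNase L. OAS2 read 7.31 untreated, 7.84 on day 1 and 8.93 on day 2 (2.13-fold), and OAS3 8.66 untreated, 8.94 on day 1 and 9.54 on day 2 (1.51-fold). For XAF1, a pro-apoptotic interferon-induced protein, the levels were 8.16 untreated, 7.95 on day 1 and 9.02 on day 2 (2.1-fold). All of these were late genes, within 1.5-fold of untreated on day 1. The OAS3 difference was close to the threshold and fell under it (0.56) when each array was centred on its median.

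RSAD2, HERC5 and ISG20 grew instead, already above untreated on day 1. RSAD2 encodes viperin, an antiviral radical SAM enzyme, and went from 9.23 untreated to 10.11 on day 1 and 11.01 on day 2 (1.86-fold between the days). HERC5, the ligase that attaches ISG15, read 9.24 untreated, 10.09 on day 1 and 10.76 on day 2 (1.6-fold). ISG20, an RNA exonuclease, read 6.24 untreated, 6.86 on day 1 and 7.53 on day 2 (1.59-fold). IFITM1, a membrane protein that blocks virus entry, had the same level untreated and on day 1 (8.24 and 8.25) and was at 9.13 on day 2 (1.84-fold).

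Most members of the list stayed under the threshold between the days. IFIT2 and IFIT3, which bind viral RNA, were sustained, with IFIT2 at 9.21 untreated, 10.38 on day 1 and 10.79 on day 2 and IFIT3 at 9.10 untreated, 9.78 on day 1 and 10.27 on day 2. The RNA sensors IFIH1 (11.12 untreated, 11.70 on day 1 and 11.71 on day 2) and RIGI (11.04 untreated, 11.39 on day 1 and 11.48 on day 2) differed by 0.01 and 0.09 between the days. IFI44 read 9.67 untreated, 10.33 on day 1 and 10.25 on day 2, with its small rise complete on day 1. Of the transcription factors in the list, IRF1 differed by 0.44 between the days, IRF7 by 0.06 and IRF9 by 0.17, all under the threshold. A further 8 members were below the filter, which uses the mean over all arrays, and 2 of them were at least 1.5-fold higher on day 2. These were MX2 (6.59 untreated, 7.28 on day 1 and 8.23 on day 2) and TRIM22 (5.95 untreated, 5.71 on day 1 and 6.77 on day 2), both antiviral restriction factors.

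Other genes of antiviral defence and antigen presentation were among the largest rises. UBE2L6, the conjugating enzyme for ISG15, read 8.52 untreated, 8.60 on day 1 and 9.78 on day 2 (2.26-fold). TLR3, a sensor of double-stranded RNA, was transiently lower, at 7.76 untreated, 6.81 on day 1 and 7.95 on day 2. SERPING1, the C1 inhibitor of complement, read 6.53 untreated, 7.01 on day 1 and 8.16 on day 2 (2.22-fold).

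A list of 9 measured genes of antigen processing, chosen after the values were seen, had a median difference of 0.27 between the days. TAP1, a subunit of the peptide transporter into the endoplasmic reticulum, read 7.63 untreated, 8.34 on day 1 and 9.33 on day 2 (1.98-fold), and PSMB9, an immunoproteasome subunit, 6.54 untreated, 6.89 on day 1 and 7.72 on day 2 (1.77-fold). The array carries 3 probe sets each for TAP1 and PSMB9, whose differences are equal. Their partners TAP2 (6.84 untreated, 6.62 on day 1 and 7.06 on day 2) and TAPBP (8.42 untreated, 8.33 on day 1 and 8.82 on day 2) differed by 0.44 and 0.49, under the threshold. B2M, the light chain of MHC class I, had 10.76 untreated and 11.25 and 11.25 on the hypoxia arrays.

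Among 9 measured chemokines, again listed after the values were seen, 3 rose and 0 fell. CCL5, which attracts T cells, was a growing gene at 8.78 untreated, 10.22 on day 1 and 11.26 on day 2 (2.05-fold between the days and 5.56-fold over untreated). CXCL16 (8.47 untreated, 8.49 on day 1 and 9.25 on day 2) and CCL22 (7.28 untreated, 7.23 on day 1 and 7.93 on day 2) were late. CXCL8, the neutrophil chemokine and a target of NF-kB, was sustained and differed by -0.53 between the days (7.49 untreated, 10.79 on day 1 and 10.26 on day 2). TNFSF15, a TNF family ligand, grew from 6.31 untreated to 8.33 and 9.05.

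**Figure D2:**
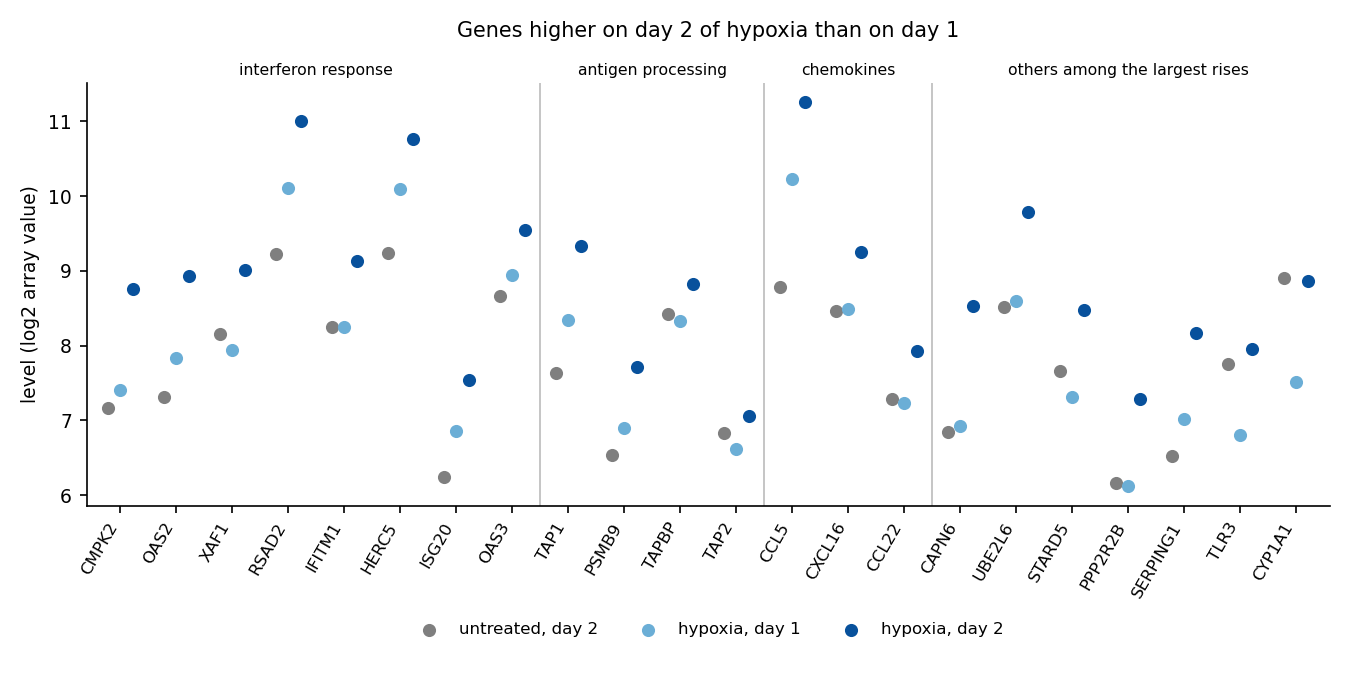
Log2 level on the untreated array and after 1 and 2 days of hypoxia, 1 array each, for members of the interferon list that rose, genes of antigen processing, chemokines and others among the largest rises. For CMPK2, XAF1, IFITM1 and CAPN6 the untreated and day 1 points lie close together and the day 2 point is above both, while TLR3 and CYP1A1 dip on day 1. TAP2 and TAPBP are shown beside TAP1 and did not reach 1.5-fold.

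Promoters of 4 of these genes are shown because they hold the interferon element and their genes rose between the days. RefSeq promoters on GRCh38.p14, from 250 bases before to 50 after the start, matched 8908 of the 11050 genes and 7 of the 8 interferon genes that rose. The core of the interferon-stimulated response element, searched on either strand as GAAA, any 2 bases and GAAA again, is in 2.65% of the 8908 promoters. It is in 17 of 27 promoters of the interferon list and in 4 of the 7 whose genes rose, HERC5, IFITM1, ISG20 and OAS3. No match was found in these windows for CMPK2, RSAD2 and XAF1. Among the 78 promoters of other genes that rose, 4 hold it (TAP1, TLR3, SLC2A12 and TFAP2A-AS1, named after the match was seen), and of 79 promoters of genes that fell, 2. The 4 promoters follow 5′ to 3′ on the plus strand, with each match in capitals.
HERC5, chr4:88456869-88457168: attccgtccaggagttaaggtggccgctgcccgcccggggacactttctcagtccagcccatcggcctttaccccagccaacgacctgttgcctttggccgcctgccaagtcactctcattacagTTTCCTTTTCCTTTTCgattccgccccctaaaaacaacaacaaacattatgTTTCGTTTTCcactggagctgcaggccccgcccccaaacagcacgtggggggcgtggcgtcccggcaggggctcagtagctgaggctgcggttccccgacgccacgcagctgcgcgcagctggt
IFITM1, chr11:313790-314089: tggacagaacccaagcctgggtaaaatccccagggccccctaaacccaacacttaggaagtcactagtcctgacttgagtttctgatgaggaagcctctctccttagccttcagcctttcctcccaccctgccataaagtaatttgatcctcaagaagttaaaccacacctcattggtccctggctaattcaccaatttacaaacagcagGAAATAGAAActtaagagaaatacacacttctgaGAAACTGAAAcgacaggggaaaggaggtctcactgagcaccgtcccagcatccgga
ISG20, chr15:88638766-88639065: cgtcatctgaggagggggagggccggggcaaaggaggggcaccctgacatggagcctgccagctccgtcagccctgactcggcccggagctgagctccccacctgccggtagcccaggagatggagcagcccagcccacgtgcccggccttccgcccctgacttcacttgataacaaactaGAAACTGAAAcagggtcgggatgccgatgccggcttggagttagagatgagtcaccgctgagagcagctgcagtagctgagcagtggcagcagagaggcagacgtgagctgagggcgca
OAS3, chr12:112938224-112938523: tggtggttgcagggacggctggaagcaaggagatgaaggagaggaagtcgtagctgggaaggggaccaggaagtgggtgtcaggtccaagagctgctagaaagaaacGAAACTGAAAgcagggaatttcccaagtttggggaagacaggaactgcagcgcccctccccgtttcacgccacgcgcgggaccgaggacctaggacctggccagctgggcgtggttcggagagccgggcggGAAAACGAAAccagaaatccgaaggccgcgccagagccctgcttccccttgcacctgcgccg

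HIF targets held most of their day 1 level. Of 35 measured HIF targets, 1 rose from day 1 to day 2 and 0 fell, with a list median of -0.11. Over all 11050 genes, 499 were at least 1.5-fold above untreated on day 1 and 575 on day 2. Among the HIF targets, 24 were higher on day 1 and 20 on day 2, none was lower, and the medians were 0.80 and 0.76. By pattern, 18 were sustained, 5 fell under the threshold by a small step, and 1 grew. The member that rose was EDN1, which encodes the vasoconstrictor endothelin 1, at 6.24 untreated, 6.91 on day 1 and 7.77 on day 2 (1.81-fold between the days). EDNRB, a receptor for endothelins, moved down over the same arrays, from 8.31 untreated to 7.39 and 6.19 (2.31-fold lower on day 2 than on day 1).

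The secreted HIF targets VEGFA and ADM differed little between the days. VEGFA, the vessel growth factor, read 9.59 untreated, 10.14 on day 1 and 10.11 on day 2, and ADM, the vasodilator adrenomedullin, 7.30 untreated, 7.98 on day 1 and 8.16 on day 2. NDRG1, a stress-induced gene, read 9.34 untreated, 11.65 on day 1 and 11.88 on day 2. Collagen hydroxylases held their level, with P4HA1 at 8.998 untreated, 10.77 on day 1 and 10.59 on day 2 and P4HA2 at 8.79 untreated, 10.33 on day 1 and 10.30 on day 2. HILPDA, a lipid droplet protein, read 7.93 untreated, 9.52 on day 1 and 9.61 on day 2. Targets with a lower level on day 2 than on day 1, though under the threshold, included FAM162A, a mitochondrial death factor (8.62 untreated, 9.69 on day 1 and 9.11 on day 2, difference -0.58), ANKRD37 (7.90 untreated, 10.40 on day 1 and 9.89 on day 2, -0.51), TMEM45A (-0.46) and WSB1 (-0.45). The demethylase KDM3A, at 8.92 untreated, 10.70 on day 1 and 10.34 on day 2, differed by -0.36.

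Among the regulators, EGLN3, an oxygen-sensing hydroxylase that HIF induces, read 7.17 untreated, 9.13 on day 1 and 8.53 on day 2 and so declined 1.51-fold between the days, just past the threshold that FAM162A missed. With each array centred on its median FAM162A passed it too (-0.61). EGLN1 read 9.01 untreated, 9.70 on day 1 and 9.53 on day 2. HIF1A, the α subunit of HIF-1, stepped down from 11.05 to 10.75 and 10.38, 1.59-fold below untreated by day 2. EPAS1, the α subunit of HIF-2, differed by 0.17 between the days, and CITED2, a HIF-induced competitor for the coactivator p300, by 0.24 (7.94 untreated, 8.75 on day 1 and 8.99 on day 2). These are RNA levels and do not report HIF protein, which oxygen controls by degradation.

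Genes of glucose uptake, glycolysis and glycogen were also near their day 1 level. None of 24 measured members passed the threshold between the days, and the median was -0.14, with 17 members lower and 7 higher on day 2. PFKFB3, whose product activates phosphofructokinase, read 7.07 untreated, 8.98 on day 1 and 8.46 on day 2 (difference -0.52), and ENO2, neuronal enolase, 6.11 untreated, 8.48 on day 1 and 7.99 on day 2 (-0.49). ALDOC, at 7.65 untreated, 10.16 on day 1 and 10.19 on day 2, and PDK1, which keeps pyruvate out of mitochondria, at 9.19 untreated, 10.63 on day 1 and 10.49 on day 2, were sustained. The transporter SLC2A1 was bright throughout (11.86 untreated, 12.20 on day 1 and 12.35 on day 2). PYGL, liver glycogen phosphorylase, was the 1 member at least 1.5-fold below untreated on day 2 (6.77 untreated, 6.25 on day 1 and 5.89 on day 2).

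The promoters of ANKRD37 and ENO2, whose genes were sustained, are shown because they hold the core hypoxia response element (ACGTG or GCGTG, either strand). The core is short and is in 63.2% of the 8908 promoters, 23 of 29 promoters of HIF targets and 15 of 22 of the glucose list. Of the 85 promoters of genes that rose between the days, 39 hold it (45.9%). Both sequences run 5′ to 3′ on the plus strand with the cores in capitals.
ANKRD37, chr4:185396591-185396890: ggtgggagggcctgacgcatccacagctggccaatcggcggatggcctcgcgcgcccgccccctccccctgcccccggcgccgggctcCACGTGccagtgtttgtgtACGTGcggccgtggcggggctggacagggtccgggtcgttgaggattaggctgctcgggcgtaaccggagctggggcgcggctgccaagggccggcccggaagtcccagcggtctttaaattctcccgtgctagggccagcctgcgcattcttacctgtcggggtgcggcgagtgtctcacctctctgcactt
ENO2, chr12:6914330-6914629: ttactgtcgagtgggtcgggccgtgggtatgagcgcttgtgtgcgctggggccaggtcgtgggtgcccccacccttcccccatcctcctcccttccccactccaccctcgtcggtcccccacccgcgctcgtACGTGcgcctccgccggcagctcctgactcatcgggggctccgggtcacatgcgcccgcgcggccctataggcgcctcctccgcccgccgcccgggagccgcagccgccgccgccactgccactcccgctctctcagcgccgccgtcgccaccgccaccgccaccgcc

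The deepest fall was in an aldo-keto reductase. AKR1C2, which reduces steroids and carbonyls, read 10.36 untreated, 8.08 on day 1 and 5.98 on day 2, 4.3-fold lower on day 2 than on day 1 and 20.8-fold lower than untreated. AKR1C3, a prostaglandin and androgen reductase, read 10.89 untreated, 9.75 on day 1 and 9.10 on day 2 (1.57-fold lower on day 2 than day 1). AKR1C1 has 2 probe sets, which differed by 0.08 and -1.21 between the days, and its mean was 7.32 untreated, 6.53 on day 1 and 5.97 on day 2. The AKR1C genes are close copies of each other, so a probe set named for one can bind RNA of another, and which of them fell is uncertain.

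Between the days 1.03% of all genes rose and 1.07% fell. The list of antioxidant and NRF2 genes had 29 measured members, of which 0 rose and 4 fell between the days (median -0.18). Besides AKR1C2 and AKR1C3 these were NQO1, a quinone reductase (11.35 untreated, 11.24 on day 1 and 10.62 on day 2), and HMOX1, heme oxygenase (8.92 untreated, 10.09 on day 1 and 9.37 on day 2). NQO1 was a late fall, under the threshold after quantile normalization (-0.54), whereas HMOX1 was a transient rise that was back within 1.5-fold of untreated on day 2. ME1, malic enzyme, stepped down from 10.63 to 10.51 and 10.00, and NFE2L2, the gene of NRF2, differed by -0.24. SOD2, mitochondrial superoxide dismutase, was sustained above untreated (9.13 untreated, 10.38 on day 1 and 10.48 on day 2). The antioxidant response element core, TGACNNNGC on either strand, is in 15.4% of the 8908 promoters, in 5 of 23 of this list, and in none of the windows of AKR1C2, AKR1C3 and NQO1. HMOX1 had no matched promoter, and sequence outside these windows was not searched.

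Genes of squamous differentiation were also among the largest falls. SPRR1A and SPRR3, small proline-rich proteins of the cornified envelope, were near untreated on day 1 and lower on day 2. SPRR1A read 10.38 untreated, 10.84 on day 1 and 9.52 on day 2 (2.49-fold lower on day 2 than day 1), and SPRR3 10.03 untreated, 10.16 on day 1 and 9.17 on day 2 (1.99-fold). IVL, which encodes the envelope precursor involucrin, was below untreated on both days (8.19 untreated, 7.20 on day 1 and 6.02 on day 2, 2.26-fold lower on day 2 than day 1).

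The envelope genes did not move as a block. In a list of 21 measured genes of the cornified envelope and squamous differentiation, drawn up after the values were seen, 2 rose and 4 fell, with a median of 0.12. SPRR2F (8.93 untreated, 9.07 on day 1 and 9.83 on day 2) and the protease inhibitor A2ML1 (6.28 untreated, 7.07 on day 1 and 7.86 on day 2) rose. RNASE7, an antimicrobial ribonuclease of skin, had its peak on day 1 and declined (6.20 untreated, 7.76 on day 1 and 7.02 on day 2). SPRR genes are near copies, and their probe sets may share RNA.

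CST1 and CST2, secreted inhibitors of cysteine proteases that are close relatives, fell late. CST1 read 10.58 untreated, 10.07 on day 1 and 8.73 on day 2 (2.55-fold lower on day 2 than day 1), and CST2 8.27 untreated, 7.85 on day 1 and 7.03 on day 2 (1.77-fold). SPP1, which encodes osteopontin, read 10.54 untreated, 10.10 on day 1 and 8.81 on day 2 (2.44-fold lower). Of the calcium-binding proteins, CALB1 (calbindin 1) declined from a high level on day 1, and CALB2 (calretinin) fell late. CALB1 read 7.78 untreated, 9.55 on day 1 and 8.54 on day 2 and CALB2 8.19 untreated, 7.79 on day 1 and 6.79 on day 2. AQP3, an aquaglyceroporin of epithelia, was a growing fall (9.83 untreated, 9.03 on day 1 and 8.34 on day 2).

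**Figure D3:**
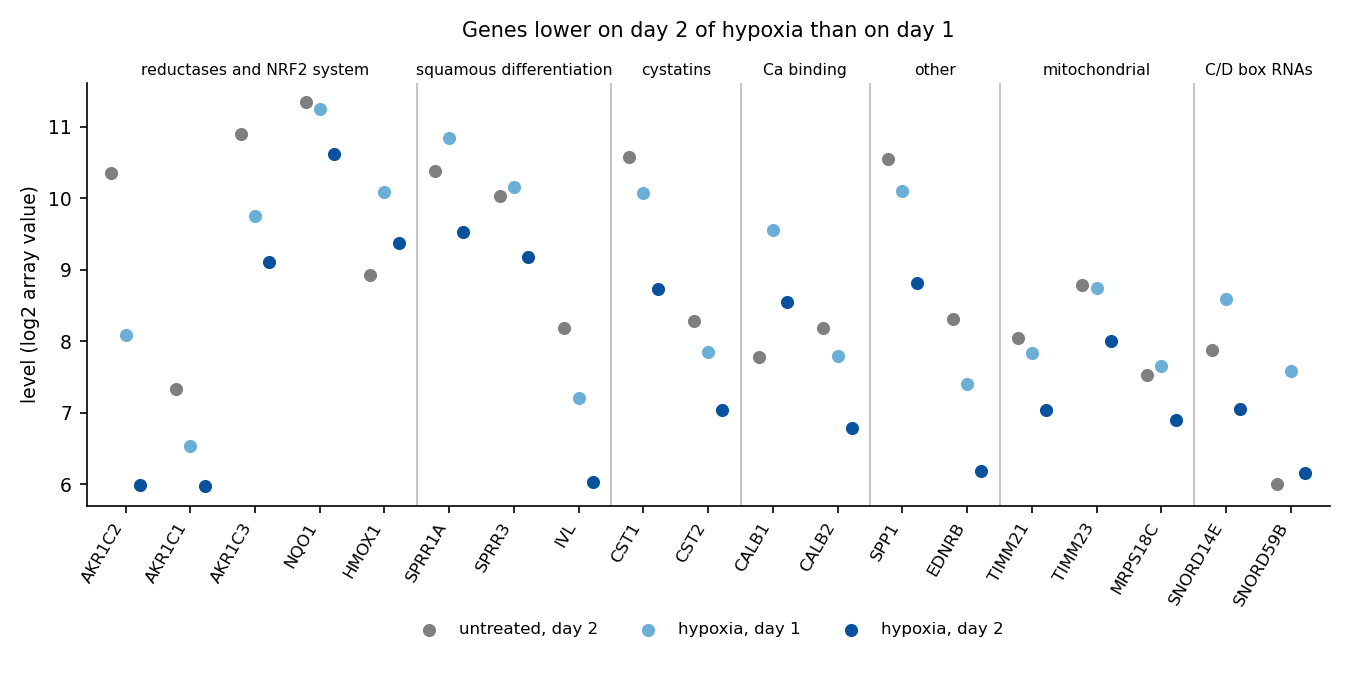
Log2 level on the untreated array and after 1 and 2 days of hypoxia, 1 array each, for genes of the aldo-keto reductases and NRF2 system, squamous differentiation, cystatins, calcium binding, mitochondria and small nucleolar RNAs. AKR1C2 drops by more than 2 log2 units at each step, whereas CST1, SPP1 and the mitochondrial genes drop mainly on day 2 and HMOX1, CALB1 and SNORD59B peak on day 1. AKR1C1 did not reach 1.5-fold between the days.

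On the values as deposited, genes of mitochondrial import and translation had medians below 0 between the days. In families picked by their symbols after the values were seen, the median difference between the days was -0.12 for 74 mitochondrial ribosomal proteins, against 0.01 over all genes, with 0 higher and 2 lower. It was -0.20 for 15 TIMM genes of the inner membrane translocase (0 and 3) and -0.14 for 41 NDUF genes of complex I (0 and 3). Over all genes 1.03% were higher and 1.07% lower. Of the 3 TIMM genes that fell, TIMM21 read 8.05 untreated, 7.83 on day 1 and 7.04 on day 2 and TIMM23, the channel subunit, 8.79 untreated, 8.74 on day 1 and 8.01 on day 2. MRPS18C, of the small mitochondrial ribosomal subunit, read 7.52 untreated, 7.66 on day 1 and 6.89 on day 2. In the list of TCA cycle and respiratory chain genes, 0 of 32 passed the threshold in either direction (median -0.07), and in fatty acid oxidation 0 of 15 (median -0.03).

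Small nucleolar RNAs, which guide chemical modification of ribosomal RNA, included some of the largest falls. Of 46 measured C/D box RNAs, a family also picked by its symbol, 2 rose and 13 fell, with a median of -0.29, and of 29 H/ACA box RNAs 0 rose and 2 fell. Over all genes 1.03% rose and 1.07% fell. SNORD59B read 6.002 untreated, 7.58 on day 1 and 6.16 on day 2. SNORD14E, at 7.88 untreated, 8.58 on day 1 and 7.05 on day 2, was the 1 gene that crossed from above untreated to below it. In the pair labelled knockdown the median of the C/D box RNAs was 1.47, and SNORD59B differed by 4.84. The part of the day 1 array labelled knockdown, which stood apart, in these values was not tested.

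The other transient genes included mediators of stress and inflammation. PTGS2, the inducible cyclooxygenase, read 9.24 untreated, 10.13 on day 1 and 9.52 on day 2. CHAC1, an ATF4 target that degrades glutathione, read 7.24 untreated, 7.84 on day 1 and 7.25 on day 2, and MSMO1, an oxygen-using enzyme of cholesterol synthesis, 9.65 untreated, 10.52 on day 1 and 9.91 on day 2. All were back within 1.5-fold of untreated on day 2, and the falls of PTGS2 (-0.58) and MSMO1 (-0.53) between the days were under the threshold after quantile normalization. CYP1A1, the xenobiotic oxidase controlled by the aryl hydrocarbon receptor, did the reverse, at 8.91 untreated, 7.51 on day 1 and 8.86 on day 2. CYP1B1, another target of that receptor, read 6.35 untreated, 6.35 on day 1 and 6.22 on day 2.

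CAPN6, a calpain without protease activity, had the largest rise of all genes compared, from 6.92 on day 1 to 8.53 on day 2 (3.05-fold) with 6.84 untreated. STARD5, a sterol-binding protein, read 7.67 untreated, 7.32 on day 1 and 8.47 on day 2 (2.23-fold), and PPP2R2B, a regulatory subunit of phosphatase 2A, 6.17 untreated, 6.12 on day 1 and 7.28 on day 2 (2.24-fold). The non-coding or pseudogene entries among the 12 largest rises and falls were OR5E1P (difference 1.33), GATD1-DT (1.17) and LINC02901 (-1.04), besides the 2 small nucleolar RNAs.

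DNA replication genes were below untreated from day 1 and held that level. Of 41 DNA replication genes, 23 were at least 1.5-fold below untreated on day 1 and 22 on day 2, with medians of -0.62 and -0.63, and 0 passed the threshold between the days (median -0.03). Over all 11050 genes, 335 and 491 were that far below untreated on days 1 and 2. MCM10, which loads the replication machinery, read 9.81 untreated, 8.58 on day 1 and 8.39 on day 2, and CDC25A, the phosphatase that drives entry into S phase, 7.24 untreated, 5.99 on day 1 and 6.07 on day 2. The mitosis list had medians of -0.25 and -0.27 against untreated, with 1 of 35 members at least 1.5-fold lower on each day and 0 past the threshold between the days. Ribosome biogenesis genes had medians of -0.45 and -0.54 against untreated, and 8 and 12 of 24 members were at least 1.5-fold lower. UTP15, a factor of small subunit assembly, was the 1 that fell between the days (8.55 untreated, 8.10 on day 1 and 7.32 on day 2).

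Most listed genes of the epithelial-mesenchymal transition stayed under the threshold between the days, as did most genes compared. Over all genes 2.1% passed it in either direction, so 0 counts in lists this short do not set them apart. Of 10 measured transition factors and epithelial gatekeepers, 0 passed the threshold in either direction. SNAI1, a repressor of CDH1, read 6.01 untreated, 6.14 on day 1 and 6.16 on day 2, and TWIST1 6.45 untreated, 6.36 on day 1 and 6.27 on day 2. Among 21 junction and keratin genes 0 passed as well, and CDH1, which encodes E-cadherin, read 10.99 untreated, 11.17 on day 1 and 11.33 on day 2. Of 11 mesenchymal and contractile genes, FN1 (fibronectin) rose late (7.96 untreated, 8.40 on day 1 and 9.11 on day 2, 1.64-fold) and S100A4, a calcium-binding protein, fell (9.85 untreated, 9.98 on day 1 and 9.27 on day 2, 1.64-fold lower). ABC transporters, the drug pumps the study asked about, had 17 measured members, 0 of which passed the threshold between the days (median -0.06, or 0.05 after quantile normalization). ANGPTL4 read 5.28 untreated, 5.29 on day 1 and 5.22 on day 2, below the filter, so its RNA was too dim on these arrays to follow. On the hypoxia arrays labelled ANGPTL4 knockdown it read 5.66 on day 1 and 5.29 on day 2, no lower than without it, so the arrays do not show the knockdown, and its label could not be checked.

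Other lists had few or no members past the threshold. Over all genes 1.03% rose and 1.07% fell, so 0 counts in lists of this size do not set them apart. Between the days, 0 members passed the threshold among 32 autophagy, 12 heat shock, 19 immediate early, 13 YAP target, 16 TGFβ-SMAD, 29 amino acid and 20 fatty acid synthesis genes. The same held for 21 growth arrest and p53 targets, 14 integrins and laminins, 9 metallothioneins and zinc regulators, 17 oxygen-dependent demethylases and 6 EGF receptors and ligands. Some of these 0 counts rest on the scaling, since centring gave 1 lower member each in the autophagy, fatty acid synthesis and TCA lists, and quantile normalization 1 higher and 1 lower in autophagy and 1 higher each in the amino acid and TCA lists. Among 28 histone genes of S phase 1 fell, H2BC8 (7.30 untreated, 7.94 on day 1 and 7.29 on day 2, from a family of near copies), and CHAC1 alone fell among 27 genes of the response to unfolded proteins and ATF4. In the inflammatory list TNFSF15 rose and PTGS2 fell among 20 (median -0.13). In the cholesterol list TM7SF2, a sterol reductase, rose (7.36 untreated, 7.06 on day 1 and 7.81 on day 2) and MSMO1 fell, among 21. Heat shock genes had a median of -0.22, the lowest among the lists plotted. After quantile normalization it was -0.12, and the median of the HIFs and their regulators was lower, at -0.16.

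The same step of time was then read in the other pairs of arrays. On the arrays labelled ANGPTL4 knockdown, 25.1% of all genes were at least 1.5-fold higher on day 2 and 12.6% lower, with an SD over genes of 0.76. ANGPTL4 itself was no lower there than without the label, but it was below the filter and too dim to check the knockdown. The day 1 array of that pair is the one that stood apart, and its part in these counts was not tested. Of the 114 genes that rose without knockdown, 30 (26.3%) rose and 12 (10.5%) fell in that pair, and of the 118 that fell, 35 (29.7%) rose and 37 (31.4%) fell. On TGFβ1, 0.163% of genes were higher and 0.308% lower (18 and 34 genes, or 6 and 8 after quantile normalization, a setting added after the data were seen), with an SD of 0.18. Of the same 114 genes, 0 rose and 1 fell on TGFβ1, and of the 118, 1 rose and 0 fell.

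For the interferon list the median of day 2 minus day 1 was 0.39 on hypoxia, 0.31 on the arrays labelled knockdown and 0.16 on TGFβ1, beside 0.01, 0.06 and 0.00 over all genes. Of its 32 members, 11 rose and 3 fell on the arrays labelled knockdown, where 25.1% and 12.6% of all genes did. With TGFβ1, on the values as deposited, 2 rose and 0 fell, where 0.163% and 0.308% of all genes did. CMPK2 read 7.08 and 6.85 on days 1 and 2 on the arrays labelled knockdown, and OAS2 5.90 and 5.92, levels below those of the untreated cells without knockdown. On those arrays RSAD2 (6.96 and 7.97) and HERC5 (7.54 and 8.33) rose too, from a lower level. CCL5 went from 9.03 to 8.16 on the arrays labelled knockdown, opposite to its rise without it.

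AKR1C3, NQO1 and SPP1 fell on the arrays labelled knockdown as well, with log2 differences of -1.67, -1.06 and -2.08. AKR1C2 was already at 7.09 on day 1 on the arrays labelled knockdown and 6.79 on day 2. CST1 and SPRR1A rose on the arrays labelled knockdown, with differences of 0.84 and 0.88. HIF targets had a median of 0.85 and glucose genes of 0.89 in that pair, with 22 of 35 and 16 of 24 members higher on day 2, where without knockdown 1 and 0 were. HILPDA read 7.505 on day 1 and 10.78 on day 2 on the arrays labelled knockdown, and ALDOC 6.97 and 10.81, so on day 1 both lay below untreated cells (7.93 and 7.65). No array of untreated knockdown cells was analysed here, and none of these differences between pairs could be tested with 1 array a condition.

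**Figure D4:**
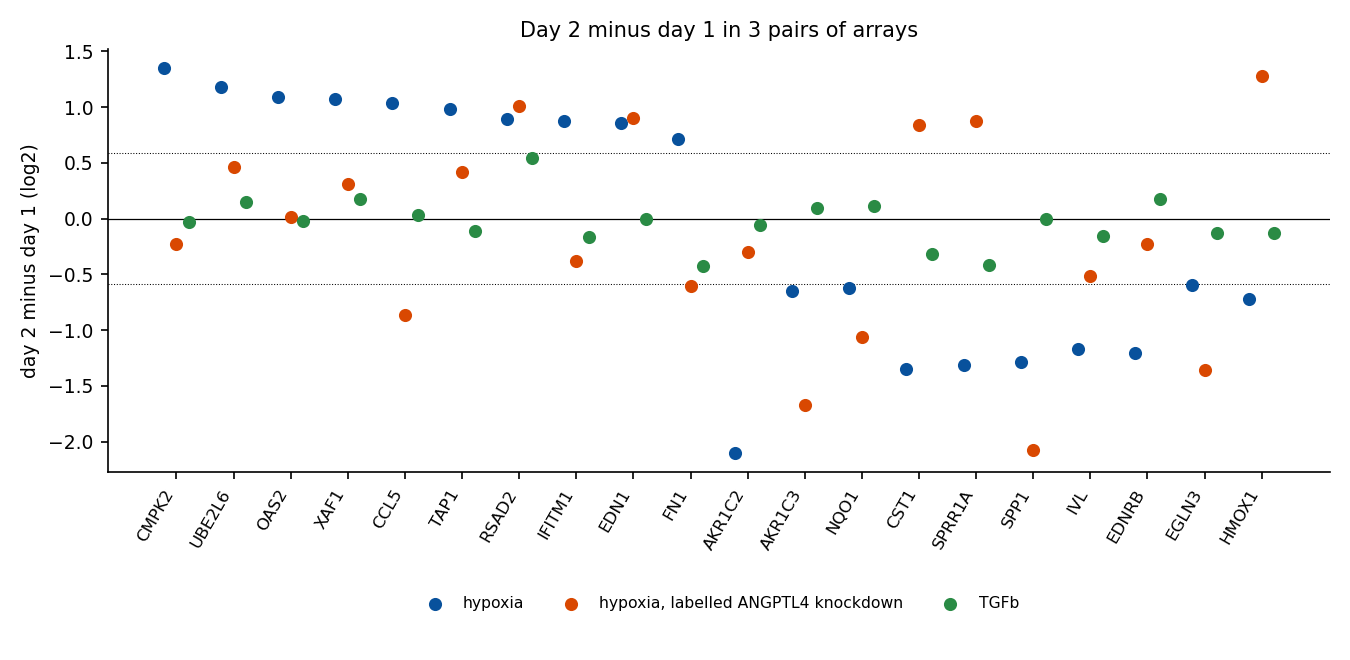
Log2 level on day 2 minus day 1 for 20 named genes on hypoxia (blue), on hypoxia with the label ANGPTL4 knockdown (orange) and on TGFβ1 (green), 1 array per time and condition, with dotted lines at a 1.5-fold difference. The TGFβ1 points lie between the dotted lines, while points of the pair labelled knockdown lie on both sides, with CCL5, FN1, CST1, SPRR1A and HMOX1 past the threshold opposite to hypoxia alone.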

How the data were processed

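Total RNA of each condition was amplified and labelled with NuGEN kits and hybridised to 1 Affymetrix Human Gene 1.0 ST array. The values were analysed as deposited, on the log2 scale to which the authors had brought them, and the submitters' processing notes name RMA and Partek without versions. Of 33297 probe sets, 19460 carried 1 gene symbol in the platform annotation, 1754 carried several and were left unnamed, and 12083 were not listed. Current symbols were matched by gene ID for 19429. Probe sets of a gene were averaged (769 of 18417 genes had several), and genes were kept when their mean over the 14 arrays was at or above the 40th percentile. On the 2 hypoxia arrays, 391 probe sets held 1 and the same value.

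A difference of 1.5-fold or more was called, a rule of size, since 1 array a side allows no test and no error between samples. An array's value has no count behind it, and the number of arrays sets the precision. Genes were named by rule as the 12 largest rises and 12 largest falls between the days, the 8 largest of each time pattern and direction, in each list the members that differed most (6 at most), the HIF, glucose and transition factor lists in full, and ANGPTL4 and SNAI1. Other list members in the text, the 10 lists and families added later and the 6 promoters were picked with their values in view. The members and lists were chosen with earlier results of these data known. The sorting into time patterns and the quantile step were tested on simulated data. Motifs were searched on both strands of RefSeq promoters of GRCh38.p14. Python 3.11.15, pandas 2.3.3, NumPy 2.4.6 and matplotlib 3.10.9 were used.

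The alternatives tried were arrays centred on their medians, quantile normalization anew, other filters on dim genes, the brightest probe set of a gene, a 2-fold threshold, and a reference of both untreated arrays. The Snai1-ER arrays entered the filter, the quantile step, the spread around other arrays and that reference only. The arrays of TGFβ1 with knockdown entered the filter, the quantile step and the spread only.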

Additional observations from a re-analysis of the deposited data

Results flagged for a closer look

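Of the genes named above, 58 moved at least 1.5-fold between the days on hypoxia. Of these, 14 moved at least 1.5-fold the opposite way in the pair of arrays labelled ANGPTL4 knockdown while 19 moved the same way. In that pair 25.1% of all genes were higher on day 2 and 12.6% lower. ANGPTL4 itself was no lower in it than without the label, but was too dim to check the knockdown. Over all 114 genes that rose on hypoxia 10.5% fell in that pair, and of the 118 that fell 29.7% rose, shares near those of all genes. Each pair was 1 array a day, the difference between the pairs was not tested, and the part of the day 1 array of the labelled pair, which stood apart, was not tested either.

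These genes rose on hypoxia alone and fell in the labelled pair. CCL5, the T cell chemokine, had log2 levels of 9.03 and 8.16 on days 1 and 2 in the labelled pair, a difference of -0.87 against 1.04 without the label. For CXCL16, a chemokine for activated T cells, the difference was 0.76 on hypoxia and -0.89 in the labelled pair (levels 9.05 and 8.17). The levels of FN1, fibronectin, in the labelled pair were 7.79 and 7.19, which differ by -0.60, where hypoxia alone gave 0.71. TFAP2A-AS1, an antisense transcript, had log2 levels of 7.35 and 6.27 on days 1 and 2 in the labelled pair, a difference of -1.09 against 0.81 without the label. For TLR3, the sensor of double-stranded RNA, the difference was 1.14 on hypoxia and -0.67 in the labelled pair.

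These genes fell on hypoxia alone and rose in the labelled pair. The levels of AQP3, the aquaglyceroporin, in the labelled pair were 7.55 and 8.37, which differ by 0.82, where hypoxia alone gave -0.69. CALB1, calbindin 1, had log2 levels of 6.21 and 7.57 on days 1 and 2 in the labelled pair, a difference of 1.36 against -1.01 without the label. For CST1, a cystatin, the difference was -1.35 on hypoxia and 0.84 in the labelled pair (levels 8.73 and 9.57). The levels of HMOX1, heme oxygenase, in the labelled pair were 7.51 and 8.79, which differ by 1.28, where hypoxia alone gave -0.72. PTGS2, the inducible cyclooxygenase, had log2 levels of 7.69 and 9.64 on days 1 and 2 in the labelled pair, a difference of 1.94 against -0.62 without the label. H2BC8, a histone gene, differed by -0.65 on hypoxia and by 0.64 in the labelled pair. For SNORD14E, a C/D box RNA, the difference was -1.53 on hypoxia and 2.10 in the labelled pair (levels 9.98 and 12.07). The levels of SNORD59B, a C/D box RNA, in the labelled pair were 3.59 and 8.43, which differ by 4.84, where hypoxia alone gave -1.43. SPRR1A, a cornified envelope protein, had log2 levels of 8.82 and 9.69 on days 1 and 2 in the labelled pair, a difference of 0.88 against -1.31 without the label.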

How the results depend on the processing

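The counts of genes that rose and fell between the days (114 and 118) were 95 and 145 with each array centred on its median, with 95 and 118 shared, and 118 and 117 after quantile normalization, with 96 and 111 shared. Without a filter they were 238 and 224, and late higher genes numbered 85, transient ones 60 higher and 43 lower, and declining lower ones 1. The brightest probe set also gave 1 declining lower gene. At 2-fold, 13 genes rose and 10 fell, sustained genes numbered 86 higher and 15 lower, late ones 6 and 4, transient ones 2 and 1, growing ones 1 and 1, and declining higher ones 0, while 3 interferon genes and 0 HIF targets rose and 1 antioxidant gene fell. Against the mean of both untreated arrays, 596 genes were sustained higher and 376 lower, 22 grew upward and 9 higher ones declined. Centring left 1 HIF target lower between the days. In other lists scaling moved a count by 1 at most, and quantile normalization left 0 members of the inflammatory and cholesterol lists lower. The 10 lists and families added later were not run under these alternatives. No named gene past the threshold turned its direction under centring, quantile normalization or the brightest probe set. Named genes that differed by under 0.1 between the days did turn, among them ALDOC, IFIH1 and SNAI1 on centring and VEGFA, P4HA2 and KRT8 after quantile normalization. Leaving out a replicate was not possible with 1 array per condition. No paired analysis was possible because the labels give each condition 1 sample and no shared replicate numbers. With 1 array a side and 1 untreated array, taken on day 2, the spread between cultures is not known. The arrays give no read depth, and dim genes were called more often than bright ones.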
